A study of Mus musculus with 2 samples.

Results

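The mitochondrially encoded genes of the mouse were described in RNA-seq of the embryonic stomach. All genes whose symbol starts with mt- were taken, after matching the deposited gene identifiers to GENCODE mouse symbols, a rule that uses no measured value. They were 37 of the 43346 genes in the deposited tables: 13 mRNAs, 2 rRNAs and 22 tRNAs. The series held 1 group of 2 libraries, biological replicates 2 and 1, from stomachs of B6NCrl mouse embryos at day 14.5 of gestation. Per the labels, each library came from the single stomach of 1 pup, collected on day 17 (replicate 2) and day 15 (replicate 1) of the same month. The labels give a pooled sex, although a sample was 1 pup. No second condition was sampled, so the values below are levels and differences between 2 embryos, with no p-value for any gene.

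The mitochondrial genome is a small circle that nuclear-encoded RNA polymerase POLRMT transcribes from both strands into long precursors. These precursors are cut at the tRNAs, which lie between most mRNAs and rRNAs, and the mRNAs receive short poly(A) tails. Each mRNA encodes a hydrophobic subunit of the respiratory chain or of ATP synthase, the rRNAs form the core of the mitochondrial ribosome, and the tRNAs serve translation inside the organelle. Fragments of mitochondrial DNA have also been copied into the nuclear genome during evolution, and a recent copy differs little from its source.

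The sequences shown here, taken from GENCODE M21 transcripts on GRCm38, are an overlap of 2 mRNAs and the places where mitochondrial mRNAs and their nuclear copies differ or end. The mRNAs of mt-Atp8 and mt-Atp6 share 43 nt, marked in capitals at the end of mt-Atp8 (chrM:7766-7969, plus strand).
mt-Atp8: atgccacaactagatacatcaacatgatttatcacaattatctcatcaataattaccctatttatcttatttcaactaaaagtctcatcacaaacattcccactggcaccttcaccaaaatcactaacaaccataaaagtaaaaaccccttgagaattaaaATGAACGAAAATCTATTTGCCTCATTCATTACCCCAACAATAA
The mRNA of mt-Nd4l (chrM:9877-10173, plus strand) has a nuclear copy, Gm10222, that is identical over 294 nt and lacks the 3 bases in capitals.
mt-Nd4l: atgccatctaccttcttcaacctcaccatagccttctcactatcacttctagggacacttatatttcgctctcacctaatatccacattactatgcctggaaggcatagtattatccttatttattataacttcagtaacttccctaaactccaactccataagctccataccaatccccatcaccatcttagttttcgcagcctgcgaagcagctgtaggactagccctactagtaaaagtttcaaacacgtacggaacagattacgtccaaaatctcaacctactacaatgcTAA
The mRNA of mt-Nd3 differs from its nuclear copy Gm28438 at 1 base over 345 nt, T3C counted from the first base of mt-Nd3. The first 40 nt of both are given with that base in capitals (chrM:9459-9498, plus strand, and chr1:24613080-24613119, minus strand).
mt-Nd3 start: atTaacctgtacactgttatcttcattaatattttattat
Gm28438 start: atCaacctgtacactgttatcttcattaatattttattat
Between mt-Co3 and its copy Gm28437 no base differed over 783 nt, and mt-Co3 runs 1 base further, in capitals below (chrM:9351-9390, plus strand, and chr1:24613189-24613227, minus strand).
mt-Co3 end: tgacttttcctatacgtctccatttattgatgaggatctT
Gm28437 end: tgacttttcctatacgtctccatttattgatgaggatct
Gm29216 copies 492 nt of mt-Co1 from base 1054 onwards, with 6 differences, all in its first bases (capitals): T1056A, C1057T, A1059G, A1060G, C1062A and A1066T, counted from the first base of mt-Co1 (chrM:6381-6420, plus strand, and chr1:24616158-24616197, minus strand).
mt-Co1 stretch: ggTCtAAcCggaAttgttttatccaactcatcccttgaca
Gm29216 start: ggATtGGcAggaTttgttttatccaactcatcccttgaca

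Of the 13 mRNAs, 10 ended in a complete stop codon (8 in TAA and 2 in TAG). The annotated transcripts of mt-Co3, mt-Nd4 and mt-Cytb ended in a lone T, which polyadenylation completes to a stop codon. The first codon was ATG in 9 mRNAs and another triplet in 4. A single mRNA, mt-Nd6, is read from the minus strand, and its base composition stood apart: G made up 28.1% of mt-Nd6, against 5.88% (mt-Atp8) to 16.1% (mt-Co1) of the other 12 as the transcripts are written.

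Total expected counts, the authors' estimated read numbers, were 25599910 in replicate 2 and 25072242 in replicate 1. The 37 genes took 523398 of these in replicate 2 and 491398 in replicate 1, or 2.05% and 1.96%. In TPM, which corrects for transcript length and is scaled to 1 fixed total that includes the spike-in RNAs, they held 3.49% in replicate 2 and 3.51% in replicate 1, 3.50% ± 0.00773 (SD, n = 2). The mRNAs held 2.87% ± 0.0112 of TPM and the rRNAs 0.627% ± 0.019. With the nuclear copies described below counted in, the share was 5.31% for all members and 4.68% for the mRNAs. Both libraries held 15 of the 37 members at TPM 1 or more, against 15137 of 43346 genes (34.9%). The 22 others were the tRNAs. Genes listed as stomach markers were present: all 11 reached TPM 1 in both libraries, with summed levels of 6178 TPM in replicate 2 and 6675 TPM in replicate 1. The highest of them in replicate 2 and replicate 1 were Cym (1927 and 2152 TPM) and the actin genes Acta2 (1869.5 and 1929.5 TPM) and Actg2 (1015 and 1121 TPM). How much of the sum is particular to stomach was not tested. The libraries were not 1 library deposited under 2 names: their counts over genes differed by more than counting noise (chi-square 153110, 17509 degrees of freedom), which does not tell separate embryos from separate preparations.

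**Figure D1:**
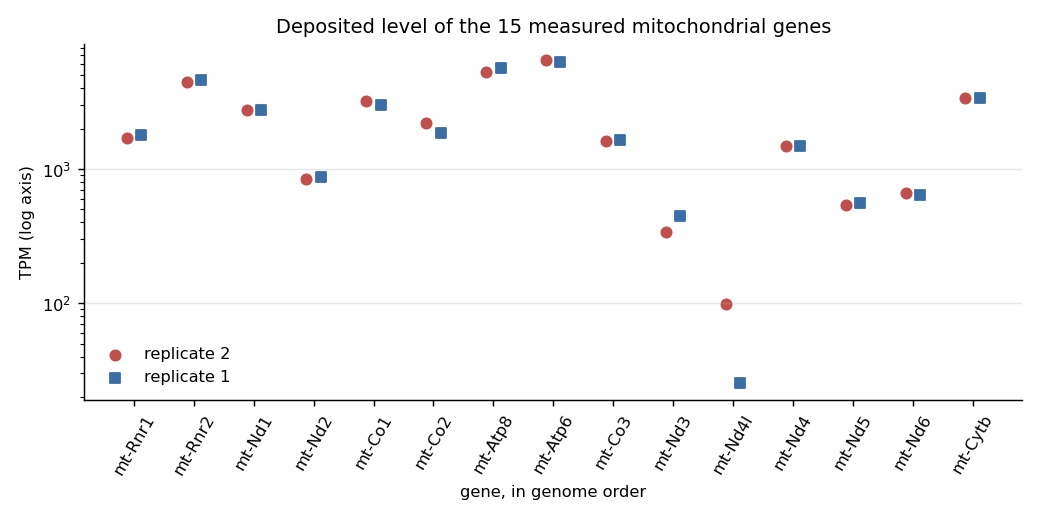
Deposited TPM (log axis) of the 13 mRNAs and 2 rRNAs in genome order, as points for replicate 2 (red circles) and replicate 1 (blue squares). The points of most genes nearly coincide, and mt-Nd4l lies lowest, at 98.7 TPM in replicate 2 and 25.3 TPM in replicate 1.

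The 2 rRNAs were at similar levels in both embryos. mt-Rnr2, the 16S rRNA of the large ribosomal subunit (chrM:1094-2675, plus strand), had 4427 TPM in replicate 2 and 4617 TPM in replicate 1. mt-Rnr1, the 12S rRNA of the small subunit (chrM:70-1024, plus strand), had 1713 TPM in replicate 2 and 1792 TPM in replicate 1. Per length, mt-Rnr2 exceeded mt-Rnr1 by 2.58-fold in both libraries (2.58 ± 0.0059, SD, n = 2). The labels link a Smart-seq protocol, and how fully the library step recovered RNAs with a short poly(A) tail or none was not tested.

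The 7 mRNAs of complex I, the NADH dehydrogenase at the entry of the respiratory chain, made up 23.4% ± 0.267 of the deposited mRNA TPM. mt-Nd1, a subunit of the membrane arm next to the quinone site, was the highest of them, with 2726 TPM in replicate 2 and 2731 TPM in replicate 1. mt-Nd4, a proton-pumping subunit, had 1472 TPM in replicate 2 and 1489 TPM in replicate 1. mt-Nd2, another pumping subunit, had 842 TPM in replicate 2 and 866 TPM in replicate 1. mt-Nd5, the pumping subunit at the far end of the membrane arm, had 538.5 TPM in replicate 2 and 556.6 TPM in replicate 1. For these 4 genes the libraries lay within a few percent of each other.

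The minus-strand gene mt-Nd6, a small membrane-arm subunit, had 667 TPM in replicate 2 and 641 TPM in replicate 1. It made up 2.28% ± 0.0541 of the mRNA TPM and ranked 10 of 13. Its 3′ end overlaps that of mt-Nd5 by 14 nt on the opposite strand, and whether counting used strand is not given in the sources used here, so RNA of mt-Nd6 and antisense RNA of the same bases cannot be told apart. The 2 lowest complex I mRNAs were mt-Nd3, with 340 TPM in replicate 2 and 447 TPM in replicate 1, and mt-Nd4l, with 98.7 TPM in replicate 2 and 25.3 TPM in replicate 1. Both are short membrane-arm subunits, and both have a near-identical nuclear copy.

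The single mitochondrial mRNA of complex III, mt-Cytb, encodes cytochrome b, the core of the bc1 complex. It had 3362 TPM in replicate 2 and 3388 TPM in replicate 1, rank 3 among the mRNAs. Of the 3 mRNAs of complex IV, the cytochrome c oxidase that reduces oxygen, mt-Co1 encodes the catalytic subunit and had 3231 TPM in replicate 2 and 3010 TPM in replicate 1. mt-Co2, which carries the site that takes electrons from cytochrome c, had 2185 TPM in replicate 2 and 1841 TPM in replicate 1. mt-Co3, the third core subunit, had 1628 TPM in replicate 2 and 1648 TPM in replicate 1. Together they made up 23.6% ± 1.25 of the deposited mRNA TPM.

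The 2 mRNAs of complex V, the ATP synthase, were the highest in the deposited tables and made up 41.3% ± 0.873 of mRNA TPM. mt-Atp6, subunit a of the proton channel, had 6459 TPM in replicate 2 and 6303 TPM in replicate 1, which placed it at rank 6 and rank 5 of all genes. mt-Atp8, a small subunit of the stator, had 5248 TPM in replicate 2 and 5692 TPM in replicate 1. Between neighbours in the order of the 13 mRNAs by deposited TPM, the values of both libraries were apart at all 12 steps. These values are point estimates, and the authors' credible intervals did not keep that order apart. In replicate 2 the interval of mt-Atp6, 4397 to 7155.5 TPM, held that of mt-Atp8, 4986 to 5186 TPM. The interval of mt-Co3 ran from 849 to 8437 TPM there. These intervals lay around the posterior mean TPM, another estimate that the authors gave. For mt-Atp8 in replicate 2 this estimate was 5085 TPM, and the deposited 5248 TPM lay outside the interval. Counts per kb of annotated length, which do not correct for the bases where no full read can start, placed mt-Atp8 at rank 4 of 13, and there 4 of the 12 steps overlapped.

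The tRNAs could not be measured in these tables. Their 22 transcripts are 59 to 75 nt long, from mt-Ts2, a serine tRNA, to mt-Tl1, a leucine tRNA, and 14 lie on the plus and 8 on the minus strand. Every one of 28399 entries shorter than 100 nt had an effective length of 0 and no counts, whereas the effective length was 99 nt below the annotated length in all 26303 entries of 1 transcript with at least 100 nt. The RNA was also selected for lengths over 200 nt, per the labels. The tRNAs are therefore listed at 0 by construction, and their levels in the tissue were not detectable here. The longest and the shortest of them are given to show the size.
mt-Tl1: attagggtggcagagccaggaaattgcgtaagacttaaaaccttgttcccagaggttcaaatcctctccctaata
mt-Ts2: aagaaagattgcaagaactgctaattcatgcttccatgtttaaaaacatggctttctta

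The pairs mt-Atp8 with mt-Atp6 and mt-Nd4l with mt-Nd4 are each known to be carried by a shared bicistronic mRNA in mammals. For the pair on complex V, the deposited level of mt-Atp6 was 1.23 times that of mt-Atp8 in replicate 2 and 1.11 times in replicate 1. The overlap of 43 nt is shorter than the 100 nt that a counted stretch needs, so no such stretch lies wholly in both mRNAs. The summed counts of the pair were 77132 in replicate 2 and 71915 in replicate 1. For mt-Nd4l and mt-Nd4, which overlap by 7 nt, the deposited levels differed widely: mt-Nd4 stood 14.9 times above mt-Nd4l in replicate 2 and 58.9 times above it in replicate 1. The summed counts of this pair were 34044 in replicate 2 and 32180 in replicate 1.

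The deposited tables assigned a large part of the reads that match mitochondrial mRNAs to nuclear copies. Every stretch of 100 bases (a window) in the 15 measured transcripts was looked up in the other annotated transcripts of genes in the deposited tables. Nuclear genes with at least 1 identical window numbered 10, of which 7 lie side by side on chr1:24611535-24616197, minus strand, over 4663 nt, and 3 on chromosome 2. The chromosome 1 copies are annotated pseudogenes of mt-Co1, mt-Co2, mt-Atp6, mt-Co3, mt-Nd3, mt-Nd4l and mt-Nd4, in the order of the mitochondrial genome when read along the minus strand. Of the windows of mt-Co3, 99.9% were also in a copy, and the share was 99.5% for mt-Co2, 99.5% for mt-Atp6, 98.5% for mt-Nd4l and 97.6% for mt-Nd3. It was 60.8% for mt-Nd4, 30.8% for mt-Co1 and 3.2% for mt-Nd2. The 7 other members, mt-Rnr1, mt-Rnr2, mt-Nd1, mt-Atp8, mt-Nd5, mt-Nd6 and mt-Cytb, shared no window with another transcript searched. Stretches of the nuclear genome outside the searched transcripts were not examined.

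The 7 copies on chromosome 1 held 182102 counts in replicate 2 and 166817 in replicate 1, or 44.3% and 44.7% of the counts of the 7 pairs of gene and copy. The 3 copies on chromosome 2 (Gm13339, Gm13340 and Gm13341) held 40.1 counts together in replicate 2 and 46.3 in replicate 1. The copy with the most counts was Gm28437, that of mt-Co3: 19957 counts fell on mt-Co3 and 106970 on Gm28437 in replicate 2, and 19033 and 96593 in replicate 1. With 8739 TPM in replicate 2 and 8378 TPM in replicate 1, this annotated pseudogene ranked 2 of all 43346 genes in both libraries. mt-Co3 has 1 window that the copy lacks, and Gm28437 has none of its own.

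For mt-Nd4l, 350 counts fell on the gene and 2732 on Gm10222 in replicate 2, and 84.4 and 2610 in replicate 1. For mt-Nd3, 1513 counts fell on the gene and 5266 on Gm28438 in replicate 2, and 1878 and 4605 in replicate 1. In both pairs the copy held most of the counts in both libraries, 88.7% and 96.9% for Gm10222, and 77.7% and 71.0% for Gm28438, in replicate 2 and replicate 1. For mt-Co2, 22874 counts fell on the gene and 23353 on Gm28661 in replicate 2, and 18153 and 23020 in replicate 1. For mt-Atp6, 67271 counts fell on the gene and 16945 on Gm10925 in replicate 2, and 61840 and 18254 in replicate 1.

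The 2 remaining copies contrast with each other. Gm29216 shares 380 of its 393 windows with mt-Co1 and had a like level: mt-Co1 stood at 3231 TPM and Gm29216 at 3815 TPM in replicate 2, and at 3010 and 3281 TPM in replicate 1. Gm28439 is identical to mt-Nd4 over all of its 876 nt, yet 33695 counts fell on mt-Nd4 and 6.36 on Gm28439 in replicate 2, and 32096 and 0 in replicate 1.

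**Figure D2:**
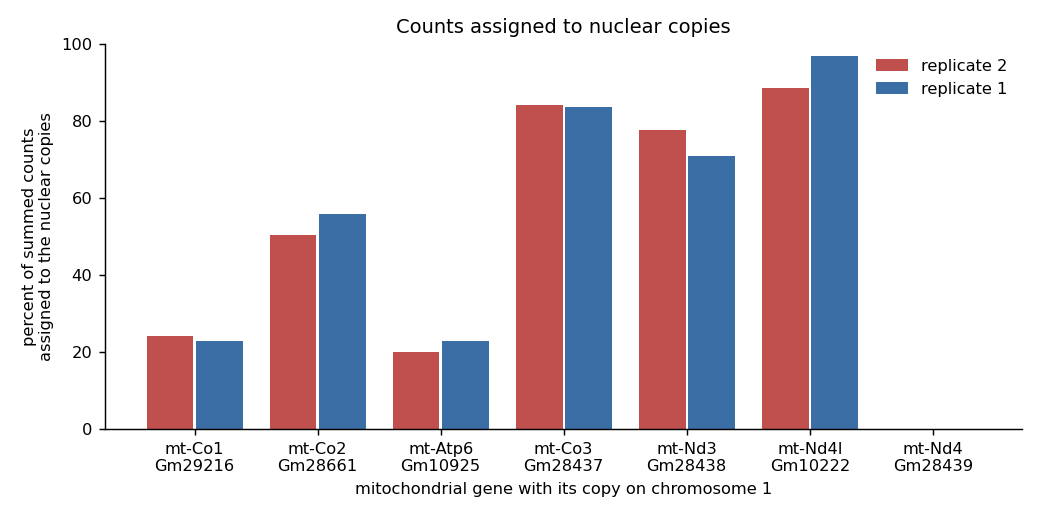
Percent of the summed counts of a mitochondrial gene and its nuclear copies that the deposited tables assign to the copies, for the 7 genes with a copy on chromosome 1, with replicate 2 (red) left of replicate 1 (blue). The share is over 70% for mt-Co3, mt-Nd3 and mt-Nd4l, between 20% and 56% for mt-Co1, mt-Co2 and mt-Atp6, and near 0 for mt-Nd4.

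The deposited counts were whole numbers for all members without a shared window and fractions for those with one, except mt-Nd2 and mt-Nd4 in replicate 1, which were whole. Taken alone, 7 of the 15 members in replicate 2 and 9 in replicate 1 had a count within 0.1 of a whole number. With the counts of their nuclear copies added, all 15 did in both libraries, and the farthest sum lay 0.04 counts from a whole number in replicate 2 and 0.05 in replicate 1. The fractional parts of a gene and its copies thus added up within each set. Which of the reads came from mitochondrial and which from nuclear RNA cannot be told apart in these tables.

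The posterior SD that the authors deposited for each count followed the same sequences. It was 0 in both libraries for all 7 members without a shared window. For mt-Co1, mt-Nd2 and mt-Nd4, which share part of their windows, it was at most 0.186% of the posterior mean count in replicate 2 and 0.207% in replicate 1. For the 5 members that share over 90% it ran from 16.7% (mt-Atp6) to 70.7% (mt-Co3) in replicate 2, and from 14.1% (mt-Nd3) to 107% (mt-Nd4l) in replicate 1. The authors' credible interval of mt-Nd4l ran from 29.8 to 210 TPM in replicate 2 and from 0.466 to 216 TPM in replicate 1, so the intervals overlap widely.

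**Figure D3:**
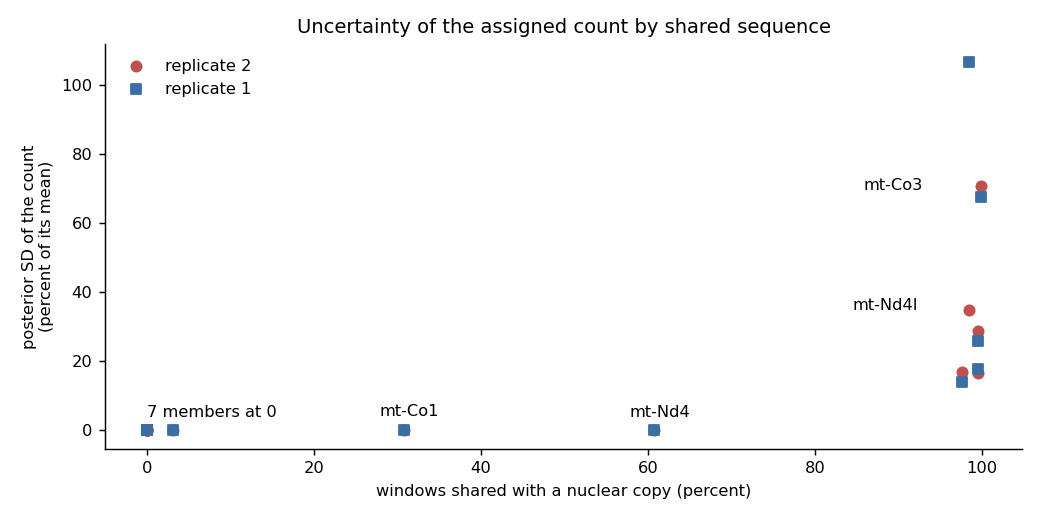
Posterior SD of the count as a percent of its posterior mean, against the percent of a gene's windows that also occur in a nuclear copy, for the 15 measured members in replicate 2 (red circles) and replicate 1 (blue squares). The 10 genes at 60.75% or less lie at or near 0, and the 5 genes over 90% lie between 14.1% and 107%.

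The counts of the copies were added to those of their gene and divided by the effective length of the gene. The resulting level is the one the mRNA would have if all these reads had come from mitochondria. Reads that match a copy alone can be in it. Gm29216 shares 380 of its 393 windows with mt-Co1, and Gm28438 shares 243 of its 246 with mt-Nd3. For all 5 members that share over 90% of their windows, the summed level lay above the authors' credible interval in both libraries. The upper bounds for mt-Co3 were 8437 TPM in replicate 2 and 7232 TPM in replicate 1. On this scale mt-Co3 was the highest mRNA, with 10354 TPM in replicate 2 and 10014 TPM in replicate 1, which is 6.22 times its deposited mean and put it at rank 1 of 13, against rank 7 as deposited. The authors' posterior mean TPM of mt-Co3 was 3789 in replicate 2 and 3423 in replicate 1, which is rank 3 of 13, and the summed level was 2.82 times that. mt-Atp6 followed with 8086 TPM in replicate 2 and 8164 TPM in replicate 1. mt-Co2 reached 4416 TPM in replicate 2 and 4177 TPM in replicate 1, and mt-Co1 4269 TPM in replicate 2 and 3903 TPM in replicate 1, so their ranges overlapped.

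The summed level of mt-Nd4l was 870 TPM in replicate 2 and 807 TPM in replicate 1, and overlapped that of mt-Nd2. It was 8.81 times the deposited level in replicate 2 and 31.9 times in replicate 1. mt-Nd4 then stood 1.69 times above mt-Nd4l in replicate 2 and 1.84 times in replicate 1. mt-Nd3 reached 1521 TPM in replicate 2 and 1545 TPM in replicate 1, 3.9 times its deposited mean. The lowest mRNAs became mt-Nd6 and mt-Nd5. The highest mRNA exceeded the lowest by 19.2-fold in replicate 2 and 18.0-fold in replicate 1, against 65.4-fold and 249-fold with the deposited TPM. Complex IV made up 42.0% ± 1.25 of the summed mRNA level, complex V 30.8% ± 1.03, complex I 19.6% ± 0.121 and complex III 7.64% ± 0.0904 (SD, n = 2). These shares rest on summed levels that lay above the credible intervals for 5 of the mRNAs.

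**Figure D4:**
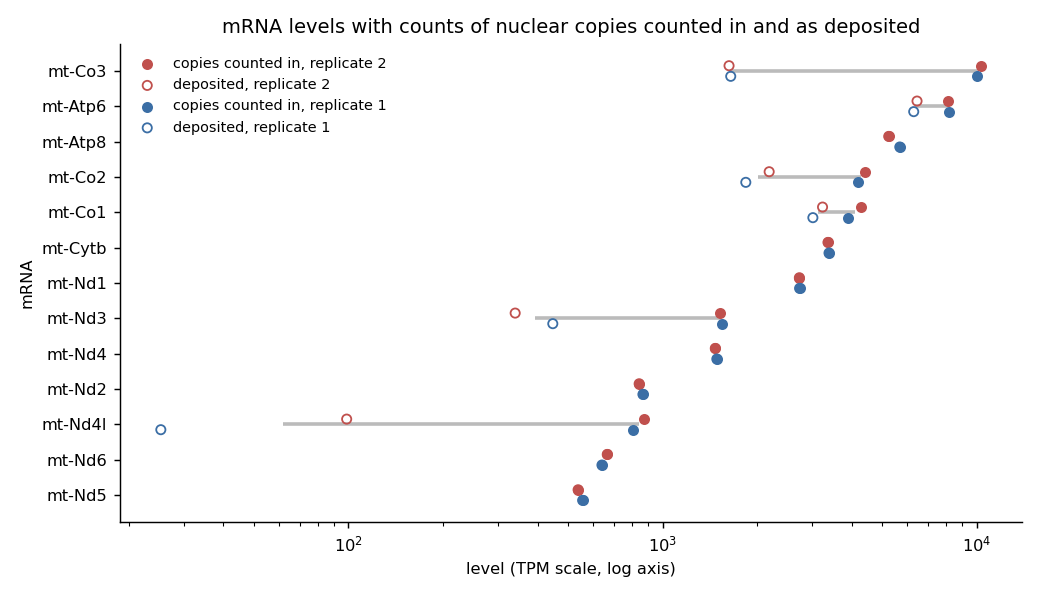
Level of the 13 mRNAs on the TPM scale (log axis), with the counts of nuclear copies counted in (filled points) and as deposited (open points), for replicate 2 (red) above replicate 1 (blue); grey lines join the means. The filled points of mt-Co3, at 10354 and 10014 TPM, are the highest, and those of mt-Nd4l lie at 870 and 807 TPM, where its open points are at 98.7 and 25.3 TPM.

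Between the embryos, 14 of the 15 measured members were less than 2-fold apart, and the exception was a gene with split reads. Ratios were taken as the log2 of replicate 2 over replicate 1 from expected counts scaled by TMM library sizes, with 0.5 added to each count. Over the 15 measured members the median log2 ratio was 0.05, beside -0.01 over the 12761 genes whose counts averaged at least 100, and the ratio was above 0 for 12 members and below 0 for 3. Scaled on spike-in counts instead, the log2 ratio of every gene shifted by -0.27, which put 2 members above 0 and 13 below and left their place relative to the other genes as it was. With the ratio of deposited TPM, 5 members were above 0 and 10 below, so the signs depend on the scaling. Over 2-fold apart was 1 of the 15 members, beside 38 of the 12761 genes (0.298%), of which 9 (0.0705%) were higher in replicate 2.

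That member was mt-Nd4l, with a log2 ratio of 2.02 and a counting interval of 1.69 to 2.40 at the 95% level. The interval covers counting error only and leaves out the posterior SD given above. From the posterior mean counts, 452 in replicate 2 and 197 in replicate 1, the log2 ratio was 1.18. Summed with Gm10222, mt-Nd4l had 3082 counts in replicate 2 and 2694 in replicate 1 and a log2 ratio of 0.17 (0.10 to 0.25). The gene itself held 11.35% of that sum in replicate 2 and 3.13% in replicate 1. The summed ratio is therefore mostly that of Gm10222 and tells little about mt-Nd4l alone. The next largest deposited differences were those of mt-Nd3, at -0.33 (-0.43 to -0.24), and mt-Co2, at 0.31 (0.28 to 0.34). With their copies counted in, these were 0.04 (-0.01 to 0.09) and 0.14 (0.13 to 0.16).

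Among the 7 members without a shared window the log2 ratio ran from -0.05 (mt-Atp8) to 0.12 (mt-Nd6). With copies counted in, all 15 members lay between -0.05 (mt-Atp8) and 0.19 (mt-Co1), and none was over 2-fold apart. For mt-Nd4l this holds for the sum, of which the gene is a small part. The middle 95% of the 12761 genes lay between -0.39 and 0.36. Acinar pancreas genes differed between the same libraries: the 16 markers summed to 48.8 TPM in replicate 2 and 814 TPM in replicate 1, 6 of them were at 0 in replicate 2 and 1 in replicate 1, and their part in the ratios of the mitochondrial genes was not tested. Not all of the markers differed: Cpb1 had 4.18 TPM in replicate 2 and 3.96 TPM in replicate 1, and Pnlip 0.2 and 0.21 TPM. The 9 erythroid markers summed to 11259 TPM in replicate 2 and 10746 TPM in replicate 1. In a whole organ, fewer cells of a type and less RNA per cell cannot be told apart.

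**Figure D5:**
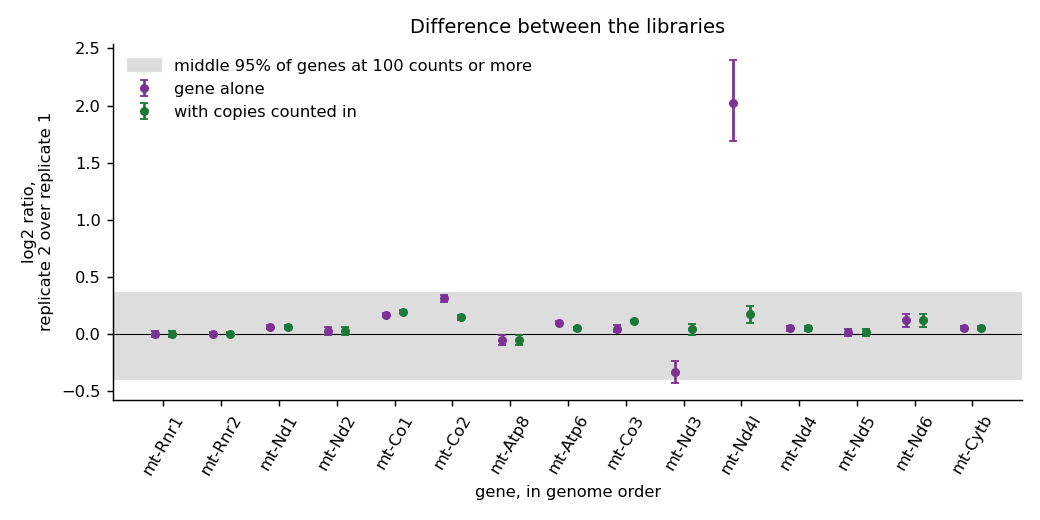
Log2 ratio of replicate 2 over replicate 1 for the 15 measured members in genome order, for the gene alone (purple) and with the counts of its nuclear copies counted in (green); bars are 95% counting intervals and the grey band holds the middle 95% of the 12761 genes whose counts averaged at least 100. mt-Nd4l alone lies outside the band, at 2.02, and at 0.17 with its copy.

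The nuclear genes that make, process and use mitochondrial RNA were detected throughout the lists examined. Over all annotated genes, 15137 of 43346 (34.9%) had TPM 1 or more in both libraries. Of 18 listed symbols of mitochondrial transcription and DNA replication, 17 matched a gene, and all 17 had TPM 1 or more in each library. The highest were Ssbp1, which coats single-stranded mitochondrial DNA, with 114 TPM in both, Mterf3, a regulator of mitochondrial transcription, with 55.8 TPM in replicate 2 and 56.2 TPM in replicate 1, and Tfam, which packages the genome and starts transcription, with 53.1 and 56.1 TPM. Of 22 symbols of RNA processing, stability and decay, 19 matched, and all were detected. Slirp, which binds and stabilises mitochondrial mRNAs, led them with 205 TPM in replicate 2 and 194 TPM in replicate 1, ahead of Hsd17b10, a subunit of mitochondrial RNase P, with 142 and 157 TPM, and Fastk, with 76.2 and 75.9 TPM.

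All 13 genes of rRNA modification and ribosome assembly were detected, led by Dhx30 with 32.3 TPM in replicate 2 and 33.4 TPM in replicate 1, Eral1 with 24.6 and 25.4 TPM, and Rpusd4 with 20.8 and 23.2 TPM. Eral1 is a chaperone of the 12S rRNA. All 17 tRNA synthetase genes were detected. Lars2, the mitochondrial leucyl-tRNA synthetase, stood far above the others in the deposited tables, with 1339 TPM in replicate 2 and 1341 TPM in replicate 1. It held 90640 counts in replicate 2 and 85466 in replicate 1. Whether reads of other RNAs were among these counts was not tested, so this level may not be that of its mRNA. Rars2, for arginine, followed with 49.7 and 51.9 TPM, and Hars2, for histidine, with 31.9 and 33.4 TPM. Of the 65 genes averaging 100 counts or more in these 4 lists, 0 were over 2-fold apart between the libraries, near the 0.298% of all genes, and the medians of their log2 ratios were 0.07, -0.04, 0.00 and -0.02 in the order given.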

How the data were processed

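RNA of 2 embryonic stomachs was sequenced, and the deposited gene tables of both libraries were used. Per the deposited notes, reads were placed on mm10 with GENCODE M4; aligner and counter: not given in the sources used here. The deposited expected counts are the authors' estimates of reads per gene, without normalization and with shared reads split. The deposited TPM values were scaled by the authors to a fixed total over genes and spike-ins. Posterior mean counts and TPM, also deposited, served as alternatives.

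From these, ratios were computed with TMM sizes (edgeR 4.0.16, R 4.3.3) and, as alternatives, DESeq2 1.42.0 size factors and spike-in counts, with 0.5 added to each count and no p-value. The ratio step was tested on simulated data. The numbered entries, 26248 per table, took 25 counts in replicate 2 and 15.47 in replicate 1 and stayed out. Windows of 100 bases and positions come from GENCODE M21 transcripts (GRCm38), whose lengths equal the deposited ones for all 47 members and copies. Shared windows were sought on the same and the opposite strand. Detection meant TPM 1 or more in each library. Counting intervals are exact (Clopper-Pearson) for the split of 2 counts, at the 95% level. Intervals and the floor of 3 counts cover counting error only, because PCR reads are not independent molecules. The spread over n = 2 holds differences between embryos and between preparations. The 13 mRNAs and 2 rRNAs were all named, and the tRNAs were given by their range of length, with the shortest and the longest named. Of the stomach list and the 4 lists of nuclear genes for mitochondrial RNA, the 3 genes with the highest TPM were named. The gene set and the lists were chosen with earlier results of these data known, although the rule for members uses symbols alone. The nuclear list held 8 symbols, of which Gm29089 shared no window and had no counts in either library.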

Additional observations from a re-analysis of the deposited data

How the results depend on the processing

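No paired analysis was possible because the series has 1 group. Counting the nuclear copies in, an alternative chosen after seeing the data, gave a mitochondrial share of TPM of 5.31% in place of 3.50%, an mRNA share of 4.68% in place of 2.87%, shares of mRNA level of 19.6% for complex I, 7.64% for complex III, 42% for complex IV and 30.8% for complex V, 0 members over 2-fold apart, and a log2 ratio of 0.039 for mt-Atp8 and mt-Atp6 summed. Posterior mean TPM gave shares of 3.6%, 2.99% and 0.607% for all members, mRNAs and rRNAs, and 21.9%, 10.9%, 30.1% and 37.1% of mRNA TPM for complexes I, III, IV and V. Leaving out the spike-ins gave 4.03%, 3.31% and 0.722%. Spike-in scaling gave log2 ratios of -0.22 for the median member, -0.19 for the pair of mt-Atp8 and mt-Atp6 and -0.21 for that of mt-Nd4l and mt-Nd4, and deposited TPM gave -0.016 for the median. The posterior mean count gave 0.02 for the first pair. Summing each overlapping pair left 0 members over 2-fold apart, which tells nothing about mt-Nd4l. Its 350 counts in replicate 2 and 84.4 in replicate 1 are a small part beside the 33695 and 32096 of mt-Nd4. They are also a small part beside the 2732 and 2610 of Gm10222. The 0 members over 2-fold apart with copies counted in thus tells little about mt-Nd4l either. Counts per kb moved the rank of 4 of the 15 members. The cause of these shifts was not tested beyond what each setting changes by construction. The lower detection level and DESeq2 size factors changed none of these counts and medians by more than the spread between members. Leaving out 1 of 2 libraries cannot move a mean past its SD and so tests nothing; mt-Nd4l stood at 98.7 TPM without replicate 1 and 25.3 TPM without replicate 2, against a mean of 62. Shared sequence limits the values of mt-Co1, mt-Co2, mt-Atp6, mt-Co3, mt-Nd3 and mt-Nd4l, and transcript length those of the tRNAs.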
